A study of Mus musculus with 14 samples.

Results

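The genes described here encode the proteins that carry glucose into the cell, break it down to pyruvate and lactate, move lactate across the membrane, and divert glucose 6-phosphate into the pentose phosphate pathway. They were chosen by gene symbol from textbook pathway membership, with earlier results of these data known. The set holds 4 glucose transporters, 2 hexokinases, 7 genes of the hexose phosphate and triose steps, and 4 bifunctional PFK2/FBPase2 regulators. It also holds 7 genes of lower glycolysis, 4 lactate enzymes and transporters, and 7 pentose phosphate genes. All 35 were present in a count table of 23337 genes, where pyruvate kinase M (Pkm) carries the symbol Pkm2. Of the 35, 30 had enough reads to be tested.

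RNA from sorted mouse heart muscle cells was sequenced in 14 libraries, 7 for each virus. The mice carried Rosa-Cas9GFP, an allele that places Cas9 and GFP at the Rosa locus, and were injected with an adeno-associated virus on postnatal day 1. In the group labelled KO the virus was AAV-Ryr2gRNA, whose name points to a guide RNA for Ryr2, the calcium release channel of the sarcoplasmic reticulum. In the group labelled Ctrl it was AAV-Cre, and both groups share the Cas9 allele. Cells were isolated by Langendorff perfusion at 4 weeks of age and purified by fluorescence-activated sorting, and poly(A) RNA was made into libraries with SMART-Seq v4 and Nextera XT. The labels do not state whether the guide virus also carried Cre, which promoter drove either virus, or the strain background, so a difference between the groups may come from the guide or from the rest of the virus, and these cannot be told apart. Nor do they tie each replicate to a mouse of its own, and the spread that the p-values are set against may therefore be in part technical.

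Glycolysis splits glucose into pyruvate in the cytosol and yields ATP without oxygen. Most steps are encoded by several genes, of which adult heart and skeletal muscle use particular ones (Slc2a4, Pfkm, Pgam2, Eno3), while most other cells and the fetal heart use general ones (Slc2a1, Hk1, Pfkl, Pfkp, Pgam1). The adult heart takes most of its energy from fatty acids and lactate, and glucose use rises in the fetal and the stressed heart. The pentose phosphate pathway makes NADPH, the reducing power for antioxidant defence and lipid synthesis, and ribose for nucleotides.

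Library totals ran from 5689335 to 13165662 counts. Ryr2, the check of the labels, lay at 602 to 763 CPM (counts relative to library totals, which were scaled by the trimmed mean of M values, TMM) in Ctrl and at 225 to 371 in KO (log2 fold change -1.13, edgeR adjusted p = 3.3e-07). The libraries with running numbers 7 to 10 in the labels, which are replicates 4 and 5 of each group, stood apart from the other 10 on the second principal component (24.2% of the variance), at 24.1 to 31.6 against -29.4 to 7.60. Those 4 also had the highest fibroblast marker sums (567 to 1156 CPM over 7 genes, against 151 to 348) and endothelial marker sums (551 to 692 CPM, against 188 to 441). Cardiomyocyte markers summed to 87897 to 103181 CPM in Ctrl and 72100 to 99197 in KO over 8 genes, of which 4 were lower in KO and 0 higher. Macrophage markers summed to 24.8 to 120 CPM in Ctrl and 62.4 to 451 in KO, with 3 of 10 tested genes higher, and neutrophil markers to at most 1.27 CPM. Pericyte and smooth muscle markers summed to 589 to 977 CPM in Ctrl and 1101 to 1939 in KO, mostly Acta2, with 3 of 7 genes higher and Pdgfrb and Rgs5 not called. No endothelial or fibroblast marker was called.

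Promoter sequence is shown for 4 of the genes that changed: Slc2a1, the general glucose transporter that was higher in KO, and 3 that were lower, Ldha, shown by the upstream of its 2 windows, which holds several matches to the motifs searched, and the muscle genes Pgam2 and Eno3 with none of them. Each line gives the 250 bases before the start site, 5′ to 3′ on the gene's strand, from RefSeq on GRCm38.p6 (the mm10 build). Capitals mark every match, on either strand, to ACGTG, the core of the hypoxia response element (read CACGT on the other strand), and to the E-box CACGTG, in which 2 ACGTG matches overlap. The CARE motif TGATGNAA, a composite site of C/EBP and ATF factors, was also searched on both strands and is absent from these windows.
Slc2a1, chr4:119108495-119108744, plus strand: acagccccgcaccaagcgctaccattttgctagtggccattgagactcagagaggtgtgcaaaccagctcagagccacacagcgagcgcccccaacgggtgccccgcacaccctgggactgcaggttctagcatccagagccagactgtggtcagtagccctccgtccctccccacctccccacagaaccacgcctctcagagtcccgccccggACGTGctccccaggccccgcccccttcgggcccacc
Ldha, chr7:46845554-46845803, plus strand: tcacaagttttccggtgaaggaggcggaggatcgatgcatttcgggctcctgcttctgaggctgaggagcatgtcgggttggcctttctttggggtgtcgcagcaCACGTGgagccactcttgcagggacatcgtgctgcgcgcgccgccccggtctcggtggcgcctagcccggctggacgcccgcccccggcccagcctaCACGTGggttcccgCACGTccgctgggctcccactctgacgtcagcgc
Pgam2, chr11:5803797-5804046, minus strand: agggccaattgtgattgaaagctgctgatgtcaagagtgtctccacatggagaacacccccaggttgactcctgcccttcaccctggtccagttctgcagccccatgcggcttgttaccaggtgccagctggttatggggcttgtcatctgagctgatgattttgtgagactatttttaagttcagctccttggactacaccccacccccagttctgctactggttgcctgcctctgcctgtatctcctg
Eno3, chr11:70656926-70657175, plus strand: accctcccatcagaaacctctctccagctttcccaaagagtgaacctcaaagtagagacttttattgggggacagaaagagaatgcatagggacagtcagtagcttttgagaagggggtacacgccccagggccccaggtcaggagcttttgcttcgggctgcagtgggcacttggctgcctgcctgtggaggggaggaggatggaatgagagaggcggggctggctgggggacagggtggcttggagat
The window of Slc2a1 held 1 ACGTG match, the window of Ldha shown 5 ACGTG matches including 2 E-boxes, and those of Pgam2 and Eno3 held 0. The second Ldha window, chr7:46846832-46847081, held 0 matches to any of the 3 motifs. Among the genes not shown, the muscle gene Pfkm, Pfkfb2 and Slc16a1, all lower in KO, each had a window with an E-box. The windows of Ldhb, also lower, and of Hk1, Pgd and Taldo1, all higher, held 0 matches. RefSeq windows that began beside a counted exon were found for 28 of the 35 genes (38 windows, some of them of the same gene). ACGTG was present in 15 of the 38, the E-box in 5 and the CARE motif in 0. The 15 are not independent: overlapping windows of Aldoa share 1 match, and Pfkm, Pfkfb2 and Pfkfb3 each gave more than 1 window with ACGTG. Among all 32851 windows of that length, 16.6% held ACGTG, 6.02% the E-box and 3.45% the CARE motif. These are matches of letters, and binding was not measured.

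Of the 30 tested genes, 5 were higher in KO (Slc2a1, Hk1, G6pdx, Pgd and Taldo1) and 9 were lower (Slc2a4, Pfkm, Pfkfb2, Pgam2, Eno3, Pkm2, Ldha, Ldhb and Slc16a1), by edgeR's quasi-likelihood test at a Benjamini-Hochberg adjusted p under 0.05. Over all 11170 tested genes, 14.5% were called higher and 13.7% lower, 28.2% in either direction. The median log2 fold change, KO minus Ctrl, was -0.07 over the 30 genes and 0.01 over all tested genes. The values of KO and Ctrl did not overlap for 7 of the 30 (Slc2a1, Pfkm, Eno3, Pkm2, Ldhb, Slc16a1 and Pgd), against 10.5% of all tested genes. By pathway, 3 of the 6 tested pentose phosphate genes were higher and 0 lower (median 0.30), while of the other 24 tested genes 2 were higher and 9 lower (median -0.16). The 35 genes together took 2.29% ± 0.0621 (SD, n = 7) of all counts in Ctrl and 2.07% ± 0.0899 (SD, n = 7) in KO.

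Fold changes depend on the scaling between libraries. Without TMM factors the median of all tested genes moved up by 0.13 on the log2 scale, the calls over all genes became 3064 higher and 852 lower in place of 1621 and 1528, and the 30 genes split into 10 higher and 7 lower. The 5 added were Slc2a8, Gpi1, Pfkp, Pgam1 and Tkt, and the calls of Pfkfb2 and Ldha were lost. In bulk RNA, fewer cells of a type and less RNA per cell cannot be told apart.

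**Figure D1:**
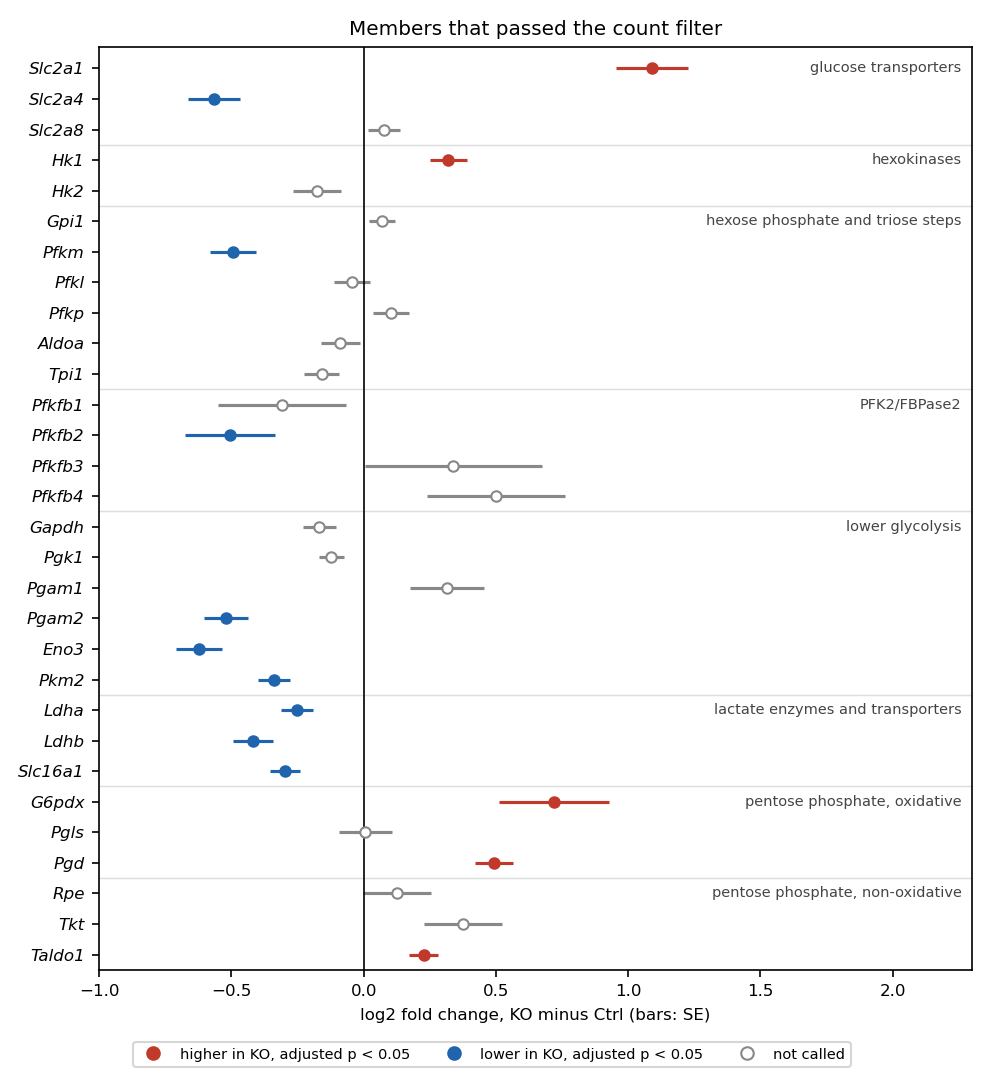
Log2 fold change, KO minus Ctrl (horizontal axis), with its standard error (bars) for the 30 tested genes, grouped by role. Red points are genes higher in KO and blue points genes lower in KO at an adjusted p under 0.05, open points were not called: the 5 higher genes lie among the transporters, hexokinases and pentose phosphate genes, and all 3 tested lactate genes are lower. Over all tested genes 14.5% were higher and 13.7% lower.

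Glucose enters the heart cell through facilitative transporters, and here the 2 best known moved in opposite directions. Slc2a1 (GLUT1, chr4:119108745-119137329 in mm10), the transporter of basal uptake that dominates before birth, had a lowest, median and highest level of 14.1, 16.6 and 23.2 CPM in Ctrl and of 25.1, 35.5 and 46.9 CPM in KO. Every KO library lay above every Ctrl library. The log2 fold change was 1.09 (SE 0.136, edgeR adjusted p = 1.7e-05), or 213% of the Ctrl level, and it was 1.10 in the other 10 libraries and 1.04 within numbers 7 to 10. Slc2a4 (GLUT4, chr11:69942286-69948190), which insulin and contraction bring to the surface of muscle cells, had 523, 651 and 769 CPM in Ctrl and 354, 414 and 532 CPM in KO. The groups overlapped by a single KO library, replicate 2, which lay just above Ctrl replicate 5. Slc2a4 was lower by a log2 fold change of -0.57 (SE 0.0991, edgeR adjusted p = 0.00039), to 67.5% of Ctrl. Slc2a8 (GLUT8), a mostly intracellular transporter, averaged 36.9 CPM in Ctrl and 39.0 in KO and was not called (adjusted p = 0.38). Slc2a3 (GLUT3), the high-affinity neuronal transporter, had 2 to 10 reads per library in Ctrl and 0 to 8 in KO, too few to test.

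Slc2a4 remained by far the most abundant transporter in both groups. Per kb of exon it made up 90.2% ± 0.869 (SD, n = 7) of the transcripts of the 4 transporters in Ctrl and 82.1% ± 1.87 (SD, n = 7) in KO. Slc2a1 made up 2.65% ± 0.531 and 7.57% ± 1.27, and the 2 groups of libraries did not overlap (highest Ctrl 3.65%, lowest KO 5.20%). Per kb, Slc2a4 stood at 226 CPM in Ctrl and 153 in KO, and Slc2a1 at 6.58 and 14.

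Hexokinase traps glucose in the cell as glucose 6-phosphate. Hk1, the constitutive form bound to mitochondria, had a lowest, median and highest level of 378, 408 and 478 CPM in Ctrl and of 457, 492 and 615 in KO, with 6 KO libraries above every Ctrl library. It was higher in KO by 0.32 on the log2 scale (SE 0.0699, edgeR adjusted p = 0.0023), or 125% of Ctrl. Within libraries 7 to 10 alone, 2 against 2, the difference was 0.29 and was not called (adjusted p = 0.058). Hk2, the insulin-responsive form of adult muscle, had 200, 216 and 254 CPM in Ctrl and 155, 196 and 250 CPM in KO. Of the KO libraries 4 lay below every Ctrl library, while replicate 1 lay near the highest of them. Hk2 was not called (log2 fold change -0.18, edgeR adjusted p = 0.16), and without KO replicate 1 it was called lower (-0.24, adjusted p = 0.039). No other left-out library made Hk2 a call, and its edgeR adjusted p reached 0.34. Hk1 made up 69.1% ± 2.22 (SD, n = 7) of the pair per kb in Ctrl and 75.9% ± 3.38 in KO.

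Phosphofructokinase commits the sugar to glycolysis, and of its 3 genes the muscle form alone passed the test. Pfkm (chr15:98092589-98132447), the muscle subunit, had 1522, 1559 and 1800 CPM as lowest, median and highest in Ctrl and 905, 1111 and 1373 CPM in KO. No KO library reached the lowest Ctrl library. The log2 fold change was -0.49 (SE 0.0875, edgeR adjusted p = 0.00044), to 71.0% of Ctrl. Pfkl, the liver subunit, lay at 214 to 265 CPM with a median of 248 in Ctrl and at 201 to 262 with a median of 239 in KO (-0.04, adjusted p = 0.68). Pfkp, the platelet subunit, lay at 156 to 197 CPM with a median of 170 in Ctrl and at 170 to 210 with a median of 182 in KO (0.10, adjusted p = 0.28). Without scaling factors the sign of Pfkl turned positive (0.09) and Pfkp was called. Part of the Pfkp exons, 276 bases, overlaps those of Pitrm1 on the other strand, and the strand setting of the counting is not given.

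The other steps on the way to the trioses showed smaller differences, none of them called. Gpi1, phosphoglucose isomerase, averaged 789 CPM in Ctrl and 828 in KO. Aldoa, the aldolase of muscle, had 4258, 4576 and 5212 CPM as lowest, median and highest in Ctrl and 3556, 4342 and 4993 CPM in KO, with 3 KO libraries below every Ctrl library (-0.09, adjusted p = 0.41, and 0.04 without scaling factors). Aldoc, the brain aldolase, had 0 to 2 reads per library in Ctrl (median 1) and 0 to 3 in KO (median 1). Tpi1, triosephosphate isomerase, averaged 1157 CPM in Ctrl and 1036 in KO (-0.16, adjusted p = 0.079), and it was called lower by DESeq2 (adjusted p = 0.041).

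The PFK2/FBPase2 enzymes make and remove fructose 2,6-bisphosphate, the strongest activator of phosphofructokinase. Pfkfb2, the heart isoform and the most abundant of the 4 per kb, had 48.9, 70.4 and 93.4 CPM as lowest, median and highest in Ctrl and 33.7, 51.2 and 73.1 CPM in KO. The groups overlapped, with 3 KO libraries below every Ctrl library. Its log2 fold change was -0.51 (SE 0.171, edgeR adjusted p = 0.035). That call rested on single libraries: it was lost in 8 of the 14 fits that left 1 library out (Ctrl replicates 2, 3 and 4, KO replicates 3 to 7), where the fold change ran from -0.61 to -0.42 and the adjusted p from 0.012 to 0.077. It was also lost without libraries 7 to 10 (-0.43, adjusted p = 0.13). Part of the Pfkfb2 exons, 154 bases, overlaps those of Yod1 on the other strand, and the strand setting of the counting is not given. Pfkfb1, known from liver and muscle, averaged 5.15 CPM in Ctrl and 4.12 in KO, and Pfkfb3 and Pfkfb4, the inducible forms, had at most 3.64 CPM in any library. None of the 3 was called, though Pfkfb4 was called higher without KO replicate 7 (0.65, adjusted p = 0.036). No other left-out library made Pfkfb4 a call, and its edgeR adjusted p reached 0.30.

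In lower glycolysis, where the trioses become pyruvate, 3 of 6 tested genes were lower in KO, 0 were higher, and the median log2 fold change was -0.25. Over all tested genes 13.7% were lower. At the level of Eno3 and Pkm2 (mean log2 CPM of 10 or more) that share was 65.6%, and at the level of Pgam2 (8 to 10) it was 42.2%. Eno3 (chr11:70657213-70662513), the muscle enolase, had 3483, 3766 and 4177 CPM as lowest, median and highest in Ctrl and 2125, 2226 and 3016 CPM in KO. The groups did not overlap, and the highest KO libraries were replicates 2 and 3. The log2 fold change of -0.62 (SE 0.0878, edgeR adjusted p = 5.4e-05) left 64.9% of the Ctrl level, with -0.60 in the other 10 libraries and -0.72 within numbers 7 to 10. Pgam2 (chr11:5801637-5803796), the muscle phosphoglycerate mutase, had 866, 995 and 1125 CPM in Ctrl and 584, 682 and 867 CPM in KO. A single KO library, replicate 3, lay level with the lowest Ctrl library, replicate 4, and the other 6 lay below it. Pgam2 was lower by -0.52 (SE 0.0841, edgeR adjusted p = 0.00019). Pgam1, the general form, had 16.3, 20.6 and 29.0 CPM in Ctrl and 20.2, 24.9 and 35.5 CPM in KO (0.31, adjusted p = 0.11).

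Pkm2, the table's symbol for the gene of pyruvate kinase M, makes ATP and pyruvate in the last step. It had 1623, 1753 and 1831 CPM in Ctrl and 1225, 1325 and 1587 CPM in KO, again without overlap (-0.34, SE 0.0605, edgeR adjusted p = 0.00045). Counts per gene do not separate its M1 and M2 splice forms. Gapdh, often used as a reference gene, averaged 1806 ± 83.5 CPM (SD, n = 7) in Ctrl and 1608 ± 147 in KO. Its log2 fold change of -0.17 missed the threshold (edgeR adjusted p = 0.053) and passed it under DESeq2 (0.019). Pgk1, phosphoglycerate kinase, averaged 164 CPM in Ctrl and 150 in KO (-0.12, adjusted p = 0.069, 0.01 without scaling factors), and it was called lower by DESeq2 (adjusted p = 0.037). The general enolase gene, Eno1, shares 1649 exonic bases with the overlapping model Gm5506 on the same strand and was counted at 0 to 7 reads per library in Ctrl (median 4) and 4 to 10 in KO (median 5), so its level could not be read from this table. RefSeq names pseudogenes after Gapdh, Pgk1 and Ldha (3 each), Aldoa and Pgam1 (2 each), and Ldhb and Gpi1 (1 each), and how reads shared with such copies were counted is not given.

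All 3 tested lactate genes were lower in KO. Of all tested genes at the level of Ldha and Ldhb (mean log2 CPM of 10 or more) 65.6% were lower, and at that of Slc16a1 (8 to 10) 42.2%. Ldhb, the lactate dehydrogenase subunit typical of heart, had 2166, 2432 and 2748 CPM as lowest, median and highest in Ctrl and 1562, 1851 and 2119 CPM in KO. The groups did not overlap (log2 fold change -0.42, SE 0.0745, edgeR adjusted p = 0.00046). Ldha, the subunit typical of glycolytic muscle, had 1743, 1895 and 2147 CPM in Ctrl and 1448, 1653 and 1761 CPM in KO, where a single KO library, replicate 3, passed the lowest Ctrl library. Ldha was lower by -0.25 (SE 0.061, edgeR adjusted p = 0.0052), a call lost without scaling factors (-0.12) and within libraries 7 to 10 (-0.27, adjusted p = 0.073). Slc16a1 (MCT1), which carries lactate into and out of heart cells, had 805, 843 and 896 CPM in Ctrl and 624, 684 and 757 CPM in KO, with no overlap (-0.30, SE 0.0555, edgeR adjusted p = 0.00067). Slc16a3 (MCT4), the lactate exporter of glycolytic cells, had 4 to 12 reads per library in Ctrl (median 10, 59 in all) and 6 to 24 in KO (median 18, 109 in all) and was not tested.

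**Figure D2:**
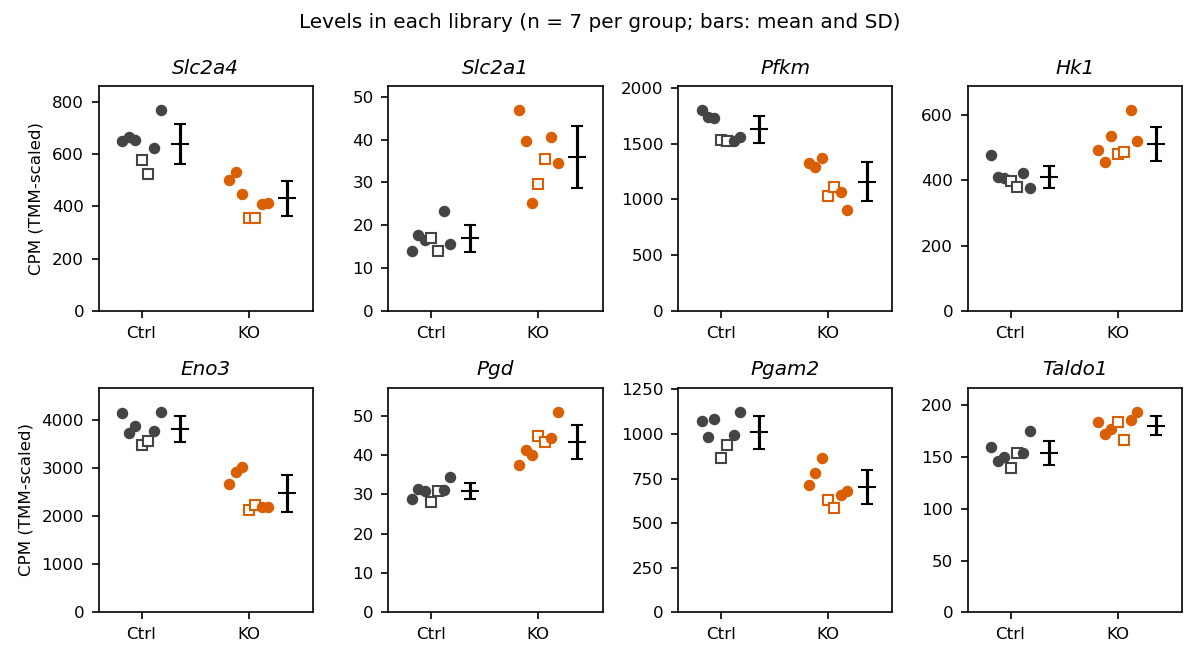
CPM in each of the 7 libraries per group for 4 genes of the adult muscle program (Slc2a4, Pfkm, Eno3, Pgam2) and 4 general or pentose phosphate genes (Slc2a1, Hk1, Pgd, Taldo1), with mean and SD beside the points; open squares are replicates 4 and 5 of each group. The groups do not overlap for Pfkm, Eno3, Slc2a1 and Pgd.

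In the oxidative branch of the pentose phosphate pathway, G6pdx and Pgd were higher in KO and Pgls was not called. G6pdx, glucose 6-phosphate dehydrogenase, controls entry into the oxidative branch and makes its first NADPH. It had 2.36, 3.11 and 6.16 CPM as lowest, median and highest in Ctrl and 4.47, 5.80 and 8.70 CPM in KO, and replicates 4 and 5 were the highest of each group. The log2 fold change was 0.72 (SE 0.209, edgeR adjusted p = 0.016), with 0.87 in the other 10 libraries and 0.47 within numbers 7 to 10, where it was not called (adjusted p = 0.31). Pgd, 6-phosphogluconate dehydrogenase (chr4:149149985-149166707), makes the second NADPH of the branch. It had 28.1, 30.9 and 34.5 CPM in Ctrl and 37.6, 43.4 and 51.0 CPM in KO, with every KO library above every Ctrl library. Pgd was higher by 0.49 (SE 0.071, edgeR adjusted p = 6.8e-05), or 141% of Ctrl, and by 0.46 and 0.55 in the 2 sets of libraries. Pgls, the lactonase between them, averaged 48.8 CPM in Ctrl and 49.0 in KO.

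In the non-oxidative branch, which returns pentoses to glycolysis, Taldo1 (transaldolase) had 139, 154 and 175 CPM in Ctrl and 166, 183 and 194 CPM in KO, with 5 KO libraries above every Ctrl library. It was higher by 0.23 on the log2 scale (SE 0.0552, edgeR adjusted p = 0.0052), and within libraries 7 to 10 the same difference was not called (adjusted p = 0.19). Tkt (transketolase), the partner enzyme, averaged 11 CPM in Ctrl and 14.2 in KO (0.38, adjusted p = 0.066) and was called in the fit with a term for libraries 7 to 10 (adjusted p = 0.031). Rpe, ribulose phosphate epimerase, averaged 14.9 and 16.2 CPM (adjusted p = 0.52), and 563 of its exonic bases overlap a gene on the other strand. Rpia, the isomerase, had 3 to 18 reads per library in Ctrl (63 in all) and 2 to 10 in KO (39 in all) and was not tested. Macrophages also express G6pdx, Pgd, Taldo1 and Slc2a1, and the macrophage marker sum was highest in KO replicates 4 (451 CPM) and 5 (296 CPM). Without libraries 7 to 10 it ran from 24.8 to 61.2 CPM in Ctrl and from 62.4 to 98.6 in KO, ranges that did not overlap, and there the differences of Slc2a1, G6pdx and Pgd were 1.10, 0.87 and 0.46. The part of these markers in the higher genes was not tested.

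Ratios between paired genes within a library do not depend on the scaling between libraries. The first gene of a pair is the muscle or heart form. The second is the general form, except for Ldha (typical of glycolytic muscle), Slc16a3 (of glycolytic cells) and Aldoc (of brain). Of 9 such pairs, 6 had both genes tested, and in all 6 the mean ratio was lower in KO. The pairs are not independent, since Pfkm stands in more than 1 of them. In each of the 6 but Hk2/Hk1 the first gene was the more abundant. Abundant genes were called lower in KO more often than higher, as given below. RNA of other cells also enters such ratios. Macrophage markers summed to 24.8 to 120 CPM in Ctrl and 62.4 to 451 in KO. Pericyte and smooth muscle markers, mostly Acta2, summed to 589 to 977 CPM in Ctrl and 1101 to 1939 in KO, while no endothelial or fibroblast marker was called. The part of level and of such RNA in the ratios was not tested. The ratio of Slc2a4 to Slc2a1 counts was 5.24 ± 0.287 (log2, SD, n = 7) in Ctrl and 3.59 ± 0.293 in KO. The difference of -1.65 (SE 0.155) left 31.9% of the Ctrl ratio, with no overlap (two-sided exact permutation p = 0.00058, the smallest that the 3432 assignments can give, and 0.0017 after Benjamini-Hochberg adjustment over the 9 pairs). The ratio of Pfkm fell by 0.46 against Pfkl (SE 0.0738) and by 0.61 against Pfkp (SE 0.134), both without overlap and at the same exact permutation p of 0.00058. Pgam2 against Pgam1 differed by -0.83 (SE 0.196, exact permutation p = 0.0017, adjusted 0.0039) and Hk2 against Hk1 by -0.50 (SE 0.114, exact permutation p = 0.0029, adjusted 0.0052), with overlapping groups. For Ldhb against Ldha, both lower in KO, the difference of -0.17 (SE 0.0783) missed the threshold (exact permutation p = 0.055, adjusted 0.062). Leaving out Ctrl replicate 5 or 6 or KO replicate 2 or 7 brought the unadjusted exact p to between 0.021 and 0.047. No other left-out library brought it under the threshold, and it reached 0.11.

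**Figure D3:**
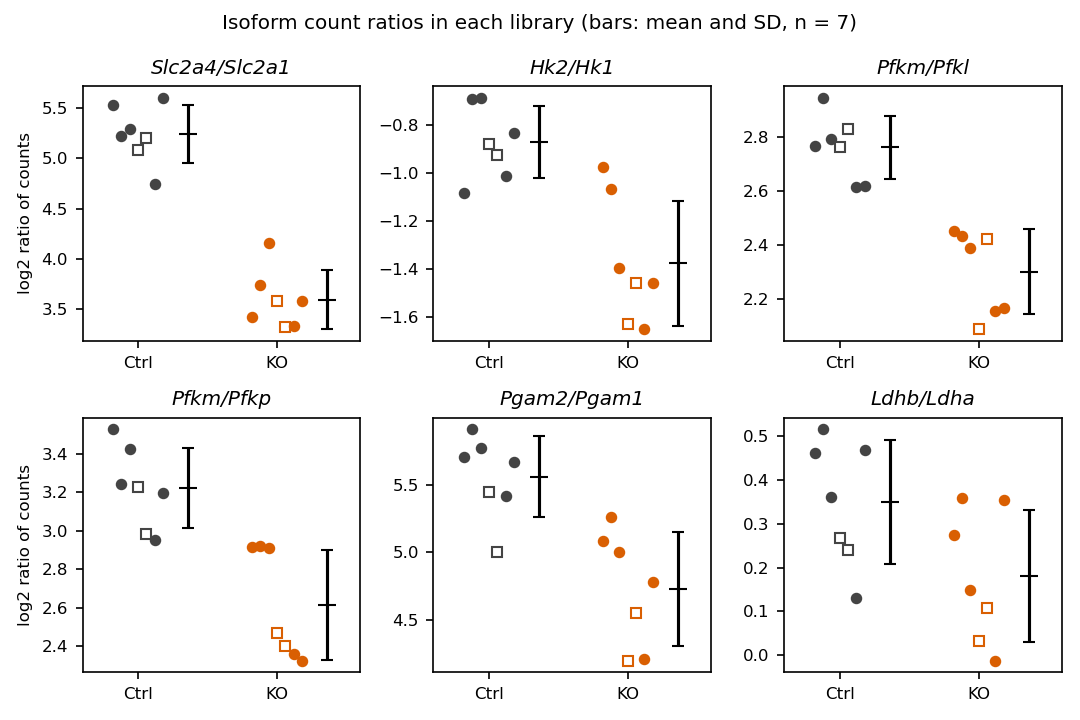
Log2 ratio of counts (pseudocount 0.5) in each library for the 6 pairs with both genes tested, with mean and SD per group (n = 7); open squares are replicates 4 and 5 of each group, and each panel has its own vertical range. The groups are separate for Slc2a4/Slc2a1, Pfkm/Pfkl and Pfkm/Pfkp and overlap for the other 3 pairs.

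The differences in ratio were of like size in libraries 7 to 10 and in the other 10: -1.69 and -1.63 for Slc2a4/Slc2a1, -0.54 and -0.43 for Pfkm/Pfkl, -0.67 and -0.58 for Pfkm/Pfkp, -0.85 and -0.82 for Pgam2/Pgam1, -0.64 and -0.45 for Hk2/Hk1. A shift in the ratio did not mean a change of the leading form. Per kb, Pfkm made up 83.1% ± 1.20 (SD, n = 7) of the 3 phosphofructokinase transcripts in Ctrl and 77.3% ± 2.37 in KO. Pgam2 made up 98.9% ± 0.234 of its pair in Ctrl and 98.1% ± 0.550 in KO, and Ldhb 65.6% ± 2.23 and 62.9% ± 2.43. The pairs of Aldoa with Aldoc, Eno3 with Eno1 and Slc16a1 with Slc16a3 rest on fewer than 25 reads per library for the second gene. For Eno1 these reads do not give its level, given the overlap with Gm5506. Its pair still entered the Benjamini-Hochberg adjustment. Slc16a1 against Slc16a3 had a difference of -1.02 (SE 0.375, exact permutation p = 0.024, adjusted 0.031). Aldoa against Aldoc had a difference of -0.06 (SE 0.529, exact permutation p = 0.89). With so few reads for Slc16a3 and Aldoc, neither value was read as a shift between the forms.

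Of the 9 lower genes all but Pfkfb2 were abundant, and abundant genes were called lower in KO more often than higher. Among the 122 tested genes whose mean log2 CPM reached 10 or more, 65.6% were called lower and 5.74% higher, with a median log2 fold change of -0.33. The 8 glycolysis and lactate genes in that range had 5 called lower, 0 higher and a median of -0.30, near the value for all genes of that level. Between 8 and 10, where 42.2% of 431 genes were lower, 3 of 5 were lower and Hk1 was higher against a share of 13%. Between 5 and 8, 15.8% of 4065 genes were higher and 20.7% lower, with 2 of 9 higher (Pgd and Taldo1) and 1 lower (Pfkfb2). Below 5, where 14% of 6552 genes were higher and the median was 0.06, 2 of 8 were higher (Slc2a1 and G6pdx). These ranges of level were chosen after the values were seen.

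**Figure D4:**
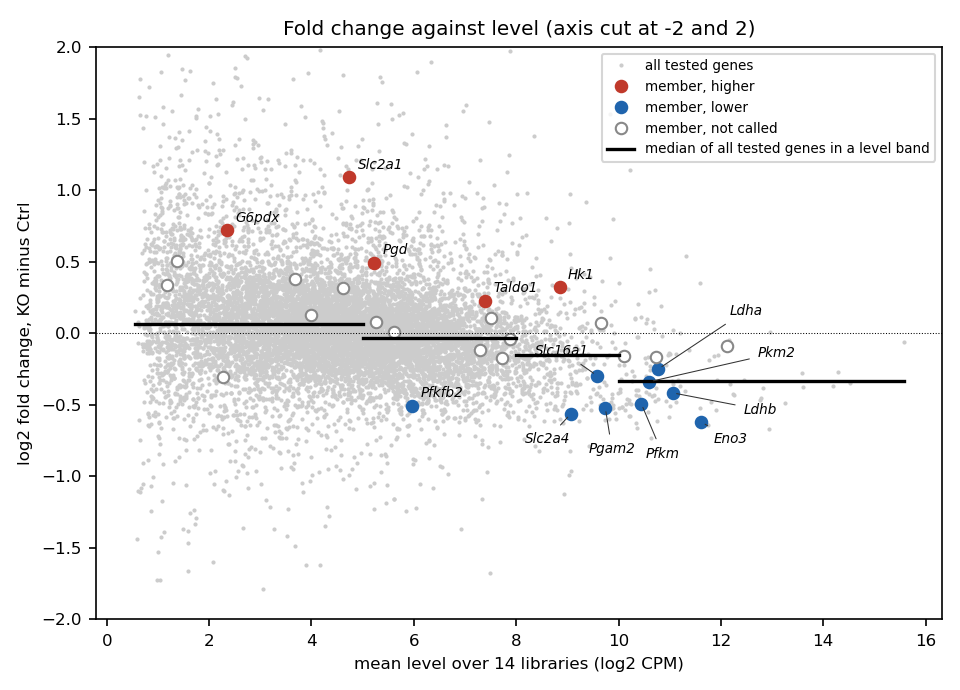
Log2 fold change, KO minus Ctrl (vertical axis), against mean log2 CPM over the 14 libraries (horizontal axis) for all 11170 tested genes (grey; values beyond -2 and 2 are not drawn) and the 30 tested genes of the pathways (circles). Black lines mark the median of all tested genes in each range of level, from 0.06 below 5 to -0.33 at 10 and above; Slc2a1, G6pdx and Pgd lie well above the line for their level.

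Genes around these pathways were taken from further lists, 71 genes in all, of which 50 were tested, 7 were higher and 18 lower (50% called in either direction, against 28.2% of all tested genes). The lists were chosen with earlier results of these data known, and the share of all tested genes is not matched for level. The difference between the shares is therefore a description only. Among other transporters and their partners, 3 of 4 tested were lower: Slc2a12 (GLUT12, a second insulin-sensitive transporter of heart and muscle) by -0.64, Slc16a7 (MCT2, a high-affinity lactate and pyruvate transporter) by -0.59, and Bsg (basigin, the chaperone that brings MCT1 to the membrane) by -0.41. Slc37a4, the glucose 6-phosphate transporter of the endoplasmic reticulum, was higher by 0.17. Bsg averaged 1699 ± 179 CPM (SD, n = 7) in Ctrl and 1279 ± 205 in KO.

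Among other enzymes of glycolysis and its reversal, 3 of 8 tested were higher and 2 lower. Pck2, the mitochondrial PEP carboxykinase, averaged 4.81 ± 1.63 CPM (SD, n = 7) in Ctrl and 42.3 ± 14.3 in KO, a log2 fold change of 3.13. Adpgk, which phosphorylates glucose with ADP in place of ATP, was higher by 0.25. Fbp2, the muscle fructose bisphosphatase that runs the phosphofructokinase step backwards, was lower by -1.07, from 47.7 ± 13.6 to 22.8 ± 5.31 CPM (SD, n = 7), and Ldhd, which oxidises D-lactate, by -0.41.

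For the entry of pyruvate into mitochondria, 3 of 8 genes were lower and 0 higher. Both subunits of the mitochondrial pyruvate carrier were among them: Mpc2 averaged 582 ± 65.5 CPM (SD, n = 7) in Ctrl and 377 ± 62.1 in KO (-0.63), and Mpc1 345 ± 41.2 and 262 ± 36.4 (-0.40). Pdk2, a kinase that switches pyruvate dehydrogenase off, was lower by -0.44. At the branch points of sugar metabolism, 4 of 7 were lower and 0 higher. Gpd1, the cytosolic glycerol 3-phosphate dehydrogenase, averaged 135 ± 14.6 CPM in Ctrl and 68.1 ± 9.50 in KO (-0.99), its mitochondrial partner in the glycerol phosphate shuttle, Gpd2, was lower by -0.42, Sord (sorbitol dehydrogenase of the polyol route) by -0.37 and Gpd1l by -0.19. Around the pentose phosphate pathway 1 of 5 tested genes was higher, Prps2, which makes the ribose donor PRPP (0.57).

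Of 18 regulators of glucose use by insulin, hypoxia and glucose sensing, 2 were higher and 6 lower, where 14.5% of all tested genes were higher and 13.7% lower. The insulin receptor substrates moved apart: Irs1 was higher (0.81, edgeR adjusted p = 3.3e-05) and Irs2 lower (-0.89, edgeR adjusted p = 0.018). Akt2, the kinase that sends GLUT4 to the membrane, was lower by -0.29. Txnip, a glucose-induced brake on glucose uptake, was higher by 0.69, with a wide spread in both groups (223 ± 88.1 CPM in Ctrl, 359 ± 112 in KO, SD, n = 7). Egln3, a prolyl hydroxylase induced by hypoxia, was lower by -0.76, Epas1 (HIF-2α) by -0.50, Egln1 by -0.29 and Mlxip, a glucose-sensing transcription factor, by -0.22, while Hif1a was not called (0.09). In the authors' deposited table, which holds their own test of the groups, 5 of the 35 genes were higher and 11 lower at an adjusted p under 0.05: all 14 genes named above as called were among these with the same direction, and the other 2 were Gapdh and Pgk1. That table states no direction, which was set by Ryr2.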

How the data were processed

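Poly(A) RNA of 14 libraries of sorted cardiomyocytes was measured. The deposited table gives raw read counts, 1 column per library and 1 row per gene. STAR, featureCounts, DESeq2, DESeq and the build mm10 are named in the submitters' processing notes; versions, annotation and strandedness are not named there. In the authors' deposited comparison, per the file headers, the authors computed a mean signal (counts over size factors), log2 fold changes, a Wald score, p-values and adjusted p-values; it was used only for the counts credited to it.

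Counts were fitted over all genes with edgeR 4.0.16 (R 4.3.3): default filterByExpr, TMM scaling, quasi-likelihood F test, no covariates, two-sided, Benjamini-Hochberg adjustment over 11170 genes, called at an adjusted p under 0.05. CPM used TMM-scaled library sizes, and levels of different genes were compared per kb of exon. Ratios used counts plus 0.5 and an exact permutation test. The fit was tested on simulated data. The pathway genes and all lists were chosen with earlier results of these data known. Every pathway gene is accounted for; both genes of each pair and all called genes are given by lowest, median and highest library (in reads where not tested), and called genes of other lists by smallest p (up to 3, or all where 5 or fewer). Alternatives were RLE scaling, no scaling, DESeq2 1.42.0, no filter, a term for libraries 7 to 10, those alone or left out, the replicate number as block, another pseudocount (2), and leaving out each library. Some genes that this rule names are not reported here. No column was left unmapped. Depth bounds precision: genes with few reads were not tested. SMART-Seq reads carry no molecular identifiers.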

Additional observations from a re-analysis of the deposited data

Results flagged for a closer look

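Among 60 sets of 7 libraries checked (each tested gene in each group), 1 held a library far from the others: Slc2a1 in Ctrl, where replicate 6 stood at 23.2 CPM and the nearest other library at 17.8 CPM. The gap was 0.594 of the whole range, above Dixon's critical value for 7 samples. Chance gives such a library in about 1 in 20 sets. The lowest KO library (25.1 CPM) still lay above it, and over the fits that left out 1 library the log2 fold change of Slc2a1 ran from 1.02 to 1.18.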

How the results depend on the processing

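The 5 higher and 9 lower genes became 5 and 12 with DESeq2, 5 and 10 with RLE scaling, 5 and 9 without a filter, 6 and 12 with a term for libraries 7 to 10, and 5 and 8 without those libraries. Without scaling factors 10 were higher, and within libraries 7 to 10 alone (2 against 2) 2 were higher. Leaving out 1 library gave 5 to 7 higher and 8 to 10 lower. The labels give both groups the same replicate numbers without saying that a number marks a shared animal or day. Deviations of same-numbered libraries correlated at 0.061 to 0.53, and only number 7 correlated best with itself in both groups, so the pairing was not used. A fit with the number as a replicate block gave 6 higher and 12 lower, adding Hk2 (-0.18), Tpi1 (-0.16), Gapdh (-0.17) and Tkt (0.39) and losing none of the 14. With the replicate block the ratio of Ldhb to Ldha differed by -0.17 (exact sign-flip p = 0.016, the smallest that this test can give here). The labels do not support that pairing. Without the block, leaving out 1 library gave differences of -0.21 to -0.14. Of called genes under single alternatives, 293 values kept call and direction and 15 lost the call, with none reversed; the latter were Pfkfb2, Ldha, and, within libraries 7 to 10, Hk1 (0.29), G6pdx (0.47) and Taldo1 (0.23). Of genes not called, signs turned without scaling for Pfkl (0.089), Aldoa (0.043) and Pgk1 (0.0084), and within libraries 7 to 10 for Gpi1 (-0.031), Pfkl (0.00029), Pgls (-0.12) and Rpe (-0.058). The sign of Pgls also turned in 7 fits leaving out 1 library, and over all fits of that kind its values ran from -0.054 to 0.058. The cause was not tested. Single libraries also made calls: without KO replicate 7 Gapdh (-0.18) and Pgk1 (-0.15), without KO replicates 2 or 3 Gapdh (-0.19, -0.18), without Ctrl replicate 5 Pgam1 (0.40), and without Ctrl replicates 4 or 5 or KO replicate 6 Tkt (0.43, 0.44, 0.43) passed the threshold. Slc2a3, Aldoc, Slc16a3 and Rpia had at most 24 reads in any library, too few to compare at this depth.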
